A study of Caenorhabditis elegans with 12 samples.

Results

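The heat shock protein (hsp) and J-domain (dnj) genes of Caenorhabditis elegans were examined after RNA interference (RNAi) against y54g2a.18, the homologue in worms of BCAP31, which encodes a membrane protein of the endoplasmic reticulum (ER). Members were taken by symbol: all hsp and dnj genes with a number, plus the small heat shock gene sip-1 and the heat shock transcription factor gene hsf-1, without the ER genes hsp-3, hsp-4, dnj-7, dnj-20 and dnj-27, and with a total of at least 10 counts over the libraries. By this rule 40 of 46891 named genes were members, and 38 of them passed the filter on low counts and were tested. The rule goes by name and not by location, and it keeps dnj-29, the homologue of SEC63 of the ER translocon.

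The worms were whole animals of the wild-type N2 strain. Polyadenylated RNA was sequenced from 3 libraries after y54g2a.18 RNAi and from 3 libraries of its own RNAi control, and the labels do not tell whether these were grown separately. The p-values therefore reflect the spread among libraries, which may be technical. The age and stage of the worms, the control construct and the way the double-stranded RNA was given are not stated in the sources used here. The series asks how the loss of y54g2a.18 or of rpoa-49, an RNA polymerase I subunit gene, affects the ageing of the worm. The table for rpoa-49 named none of the members (0 of its 43236 names) and held 418 counts in all, so it was not analysed here.

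Heat shock proteins are chaperones, which bind unfolded proteins and help them fold or keep them from clumping. HSP70 proteins work in cycles set by J-domain proteins, which deliver clients and start ATP hydrolysis, and by exchange factors of the HSP110 type; HSP90 finishes the folding of signalling proteins, HSP60 folds proteins inside mitochondria, and small heat shock proteins hold unfolded proteins without ATP. In the worm, HSF-1 switches many of these genes on after heat and is also needed for a normal lifespan, while chaperones of the ER lumen are governed mainly by the separate unfolded protein response of that compartment.

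Most heat shock and J-domain genes outside the ER changed little after y54g2a.18 RNAi. Of 38 tested members, 1 fell and 0 rose at an adjusted p of 0.05 in edgeR's quasi-likelihood test, against 8.98% of all 14290 tested genes called in either direction (3.97% higher and 5.01% lower). An unadjusted p under 0.05 was found for 3 members, or 7.89%, against 23.3% of all tested genes. DESeq2 and limma-voom each called 2 members lower and 0 higher. Over all 14290 tested genes DESeq2 called 946 lower and 826 higher, and limma-voom 733 lower and 486 higher. The log2 fold changes, RNAi minus control, ran from -0.84 for hsp-16.41 to 0.54 for hsp-16.49 with a median of -0.06, beside a median of 0.02 over all tested genes. No member reached a 2-fold change (0 of 38, against 10.7% of all tested genes), and the 95% interval left one out in both directions for 35 members, beside 57.2% of the whole table. The other 3 were hsp-12.2, hsp-16.41 and hsp-16.49. Standard errors reached 0.29 among the members and 1.77 over all tested genes, so the shares of intervals also depend on precision.

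**Figure D1:**
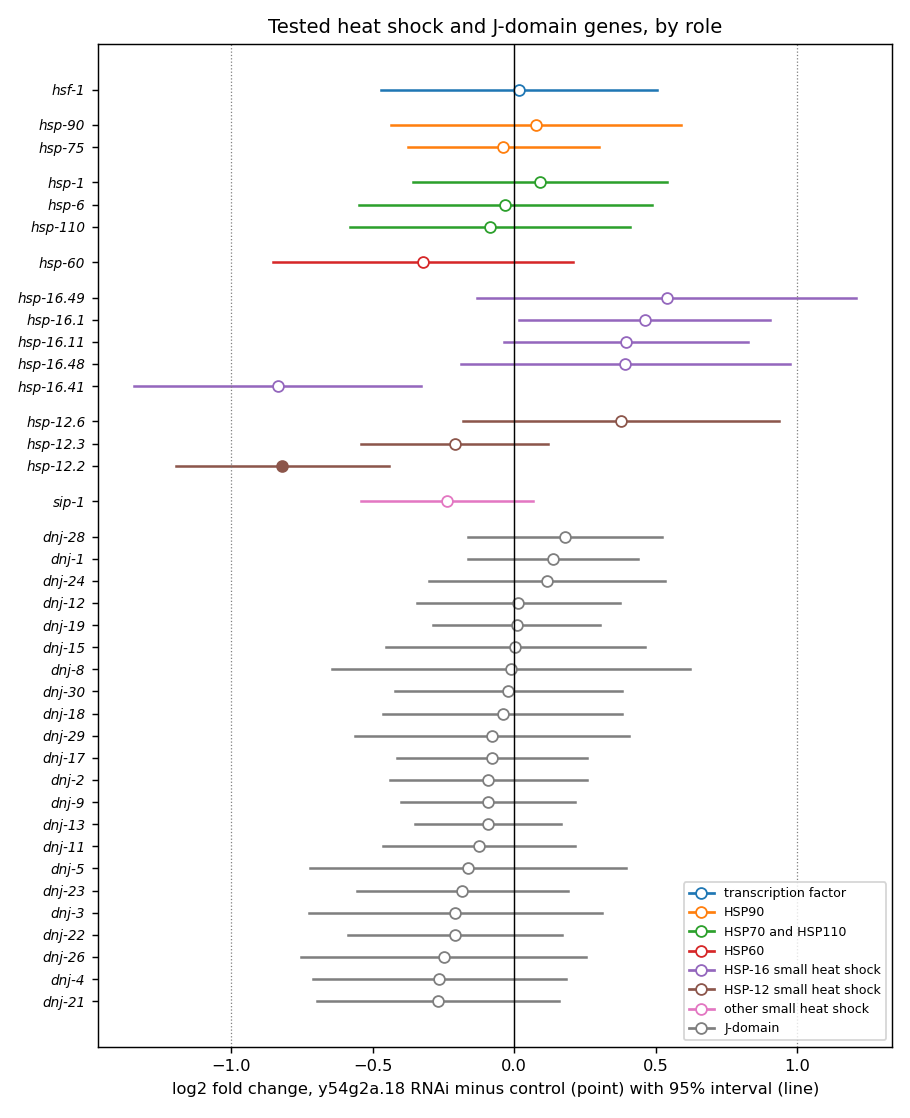
Log2 fold change of each of the 38 tested members, y54g2a.18 RNAi minus control, as a point with its 95% interval as a line, ordered by role. The filled point is hsp-12.2, the 1 member called in edgeR; dotted lines mark a 2-fold change in each direction, and apart from hsp-12.2, hsp-16.41 and hsp-16.49 every interval lies between them.

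The knockdown itself was seen in the target. Y54G2A.18 stood at 391, 358 and 409 CPM (counts scaled to a common library size, with trimmed-mean factors) in the control libraries and at 190, 128 and 90.2 CPM under y54g2a.18 RNAi libraries. Its log2 fold change was -1.51 ± 0.25 (standard error) with an adjusted p of 0.0073 in edgeR. Total counts of the 6 libraries ran from 30096438 to 39482828.

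The regulator hsf-1 was at 40.8, 46.7 and 33.7 CPM under control RNAi and 29.9, 46.2 and 46.6 CPM under y54g2a.18 RNAi. The lowest value of the 6 libraries was in knockdown replicate 1, and the groups overlapped. Its log2 fold change was 0.02, with a 95% interval of -0.47 to 0.51 (adjusted p = 0.97 in edgeR). The sign of this value turned with limma-voom (-0.0044), and transcript level alone says nothing of HSF-1 protein or its activity.

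Among the large chaperones, hsp-90, which encodes the cytosolic HSP90 (also known as DAF-21), had 2348, 2260.1 and 2289 CPM under control RNAi and 1832, 3303 and 2135 CPM under y54g2a.18 RNAi. The knockdown libraries lay on both sides of the controls, with replicate 2 far above and the other two below. The log2 fold change was 0.08 with an interval of -0.44 to 0.59 (adjusted p = 0.88 in edgeR), and it turned to -0.21 without knockdown replicate 2.

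The constitutive cytosolic HSP70 gene hsp-1 behaved alike in single libraries, with 1525, 1522 and 1453 CPM under control RNAi and 1248, 2053 and 1494 CPM under y54g2a.18 RNAi. Its log2 fold change of 0.09 had an interval of -0.36 to 0.54 (adjusted p = 0.83 in edgeR) and became -0.13 without knockdown replicate 2. The exchange factor gene hsp-110 was at 108, 129.9 and 92.4 CPM under control RNAi and 73.6, 116 and 122 CPM under y54g2a.18 RNAi, with an interval of -0.58 to 0.41 on the log2 scale. In both genes the groups overlapped.

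The mitochondrial chaperones are the usual readout of mitochondrial protein stress in the worm. hsp-6, the mitochondrial HSP70 gene, was at 203, 243 and 182 CPM under control RNAi and 139, 254 and 222 CPM under y54g2a.18 RNAi (log2 fold change -0.03, interval -0.55 to 0.49, adjusted p = 0.95 in edgeR). hsp-75, the homologue of mitochondrial TRAP1 of the HSP90 family, had a mean of 83.8 ± 7.51 CPM under control RNAi and 81.6 ± 10.6 CPM under y54g2a.18 RNAi (SD, n = 3; log2 interval -0.38 to 0.30). Neither gene separated the groups. The chaperonin gene hsp-60 had only 8.6 to 11.8 CPM under control RNAi and 6.88 to 10.8 CPM under y54g2a.18 RNAi (log2 fold change -0.32, interval -0.85 to 0.21). It is annotated with 3 RefSeq transcripts, and genes with several transcripts often had few counts here, as described below. Whether this holds for hsp-60 was not tested. Of these 7 genes, hsf-1 and the large chaperones together, 0 were called in edgeR, limma-voom or DESeq2, and 0 had an unadjusted p under 0.05 in any of the 3. With 8.98% of all tested genes called in edgeR, a count of 0 among so few genes is near that share.

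**Figure D2:**
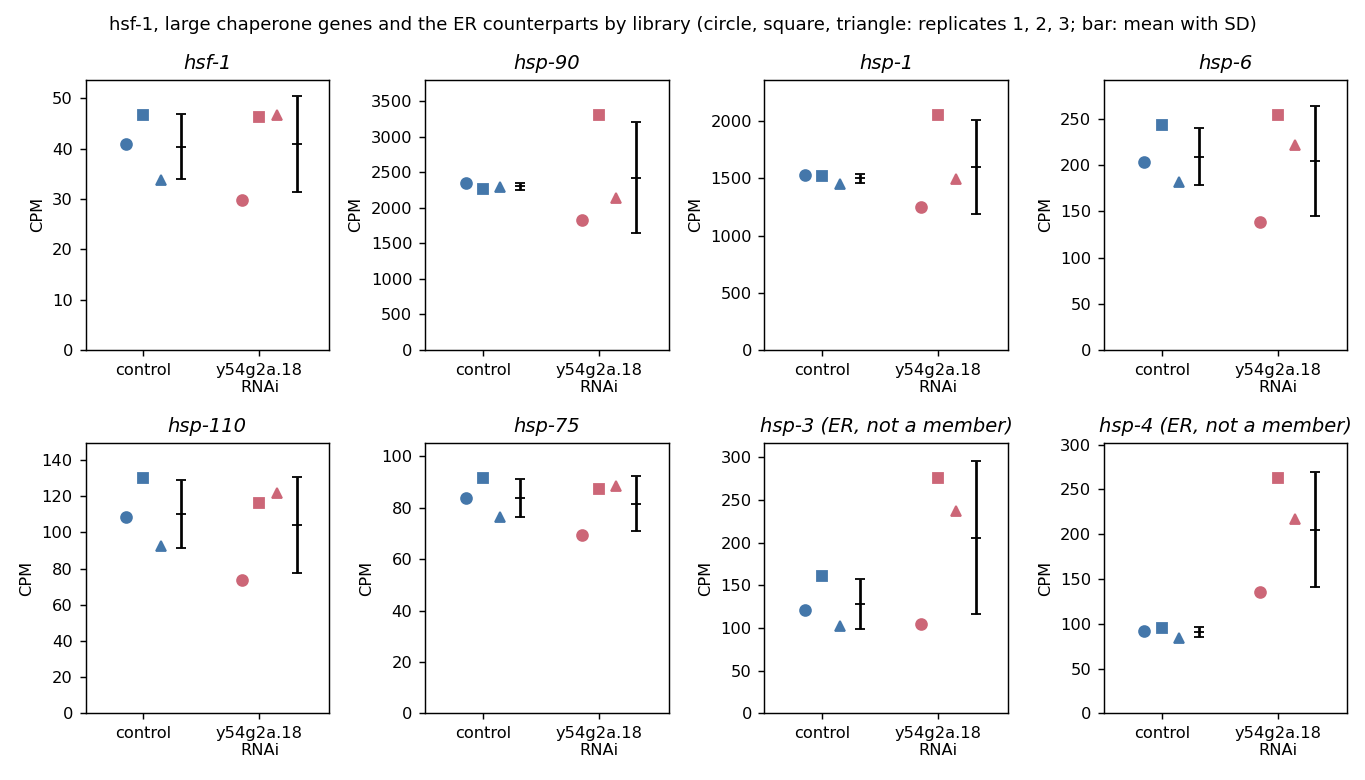
CPM by library (vertical axes, each starting at 0) of hsf-1, 5 large chaperone genes outside the ER and the ER genes hsp-3 and hsp-4; symbols mark replicates 1 to 3, and bars are the mean with SD of 3 libraries. In the first 6 panels the knockdown points fall on both sides of control points, whereas the 3 knockdown values of hsp-4, 135 to 262 CPM, all lie above the control values of 84.1 to 94.7 CPM.

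The 5 ER genes that the rule leaves out are given beside these for their own values, and no test of ER against other chaperone genes was made. All 5 had a log2 fold change above 0, with a median of 0.68, and 2 were called higher in edgeR, hsp-4 (1.18 ± 0.23) and dnj-27 (1.11 ± 0.28, standard errors). The values of hsp-3, dnj-7 and dnj-20 were 0.68, 0.34 and 0.15, with adjusted p of 0.26, 0.38 and 0.76 in edgeR and overlapping groups. The ratio of hsp-4, which encodes the ER HSP70 protein BiP, to the cytosolic hsp-1 does not depend on how libraries are scaled. It was 0.0606, 0.0623 and 0.0578 counts of hsp-4 per count of hsp-1 in the controls and 0.109, 0.128 and 0.146 in the knockdown, so that each knockdown library lay above each control. The ratio of hsp-3, the other ER HSP70 gene, to hsp-1 was 0.0797, 0.105 and 0.0705 in the controls and 0.084, 0.134 and 0.159 in the knockdown, and these overlapped. The ratio of hsp-1 to hsp-90, within the cytosol, was 0.652 ± 0.0195 in the controls and 0.667 ± 0.041 in the knockdown (SD, n = 3). These ratios were chosen with the values known and are given without a test. hsp-3, hsp-4, dnj-20 and dnj-27 have 2 RefSeq transcripts each, a class that often had few counts here, while hsp-1 and dnj-7 have 1. dnj-27 had only 6.51 to 8.46 CPM under control RNAi. Whether the counting affected these values and ratios was not tested.

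The HSP-16 proteins are the small heat shock proteins that worms make in large amounts after heat. Their genes lie in neighbouring pairs: hsp-16.2 next to hsp-16.41, and hsp-16.1, hsp-16.48, hsp-16.49 and hsp-16.11 side by side in an inverted duplication, with hsp-16.1 and hsp-16.11 as one set of near-identical copies and hsp-16.48 and hsp-16.49 as the other. No source used here states how the authors' counting treated reads that match both copies, so the split of counts within each set of copies is uncertain.

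The genes of the duplicated cluster and hsp-16.41 had fold changes of opposite sign. hsp-16.41 was at 52.1, 48.3 and 53.5 CPM under control RNAi and 39.1, 25.1 and 22 CPM under y54g2a.18 RNAi. Every knockdown library lay below every control, and knockdown replicate 1 was the nearest to them. The log2 fold change was -0.84 ± 0.22 (1.79-fold lower; interval -1.34 to -0.33), and the adjusted p of 0.053 in edgeR missed the threshold. The call was made in 6 of 16 alternatives, DESeq2 (adjusted p = 0.010) and limma-voom (0.040) among them, and over all 16 the adjusted p ran from 0.0027, without knockdown replicate 1, to 0.18, without control replicate 1.

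In the duplicated cluster, hsp-16.11 was at 62.3, 55 and 64.7 CPM under control RNAi and 102.5, 70.6 and 66.1 CPM under y54g2a.18 RNAi. hsp-16.1 was at 13.9, 11.6 and 15.2 CPM under control RNAi and 22.2, 16.52 and 17.2 CPM under y54g2a.18 RNAi. In both genes each knockdown library was above each control, by a small margin for 2 of the 3. The log2 fold changes were 0.39 ± 0.19 and 0.46 ± 0.19, with adjusted p of 0.25 and 0.20 in edgeR.

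hsp-16.48 had 92.4, 64.7 and 92.8 CPM under control RNAi and 149, 103 and 76 CPM under y54g2a.18 RNAi. hsp-16.49 had 22.6, 14.2 and 22.3 CPM under control RNAi and 39.7, 26.6 and 19.5 CPM under y54g2a.18 RNAi. Both groups of libraries overlapped, with log2 fold changes of 0.39 ± 0.25 and 0.54 ± 0.29. With the counts of near-identical copies summed before the fit, hsp-16.1 with hsp-16.11 had a log2 fold change of 0.41 ± 0.18 (adjusted p = 0.22 in edgeR) and hsp-16.48 with hsp-16.49 one of 0.42 ± 0.26 (adjusted p = 0.38).

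Knockdown replicate 1 had the highest value of the 3 knockdown libraries in all 5 tested HSP-16 genes, and the highest of all 6 libraries in the 4 genes of the cluster. Over all tested genes it was the highest of the knockdown libraries in 38.7% and the highest of all 6 in 23.7%. The same library was the lowest of all 6 in hsp-1, hsp-6, hsp-110, hsp-90 and hsp-75. Among all 38 tested members it was the lowest of all 6 in 9 (23.7%), beside 22.4% of all tested genes. Knockdown replicate 1 thus stood at opposite ends of the knockdown libraries in these 2 sets of genes. Knockdown replicate 3 in part did the reverse. It was the lowest knockdown library in hsp-16.41, hsp-16.48, hsp-16.49 and hsp-16.11, the highest in hsp-110 and hsp-75, and in between in hsp-1, hsp-6 and hsp-90. Among the controls, replicate 2 was the lowest in all 5 HSP-16 genes and the highest in hsp-6, hsp-110 and hsp-75, but not in hsp-1 or hsp-90. These patterns were described after their values were seen.

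The ratio of hsp-16.41 to hsp-16.11 within each library was steadier than either gene. It was 0.837, 0.878 and 0.828 in the controls and 0.381, 0.356 and 0.332 in the knockdown, a gap wider than the spread of either group. For comparison, the ratio of hsp-16.48 to hsp-16.11, both genes of the cluster, was 1.48, 1.18 and 1.43 in the controls and 1.46, 1.46 and 1.148 in the knockdown. The first ratio separated the groups and the second did not. Both were chosen with the values known, and no test is given. The remaining member of the family, hsp-16.2, had 0 to 6 counts in each of the 6 libraries and 25 in all, and it did not pass the filter. It has 2 RefSeq transcripts, like many genes with few counts in this table.

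**Figure D3:**
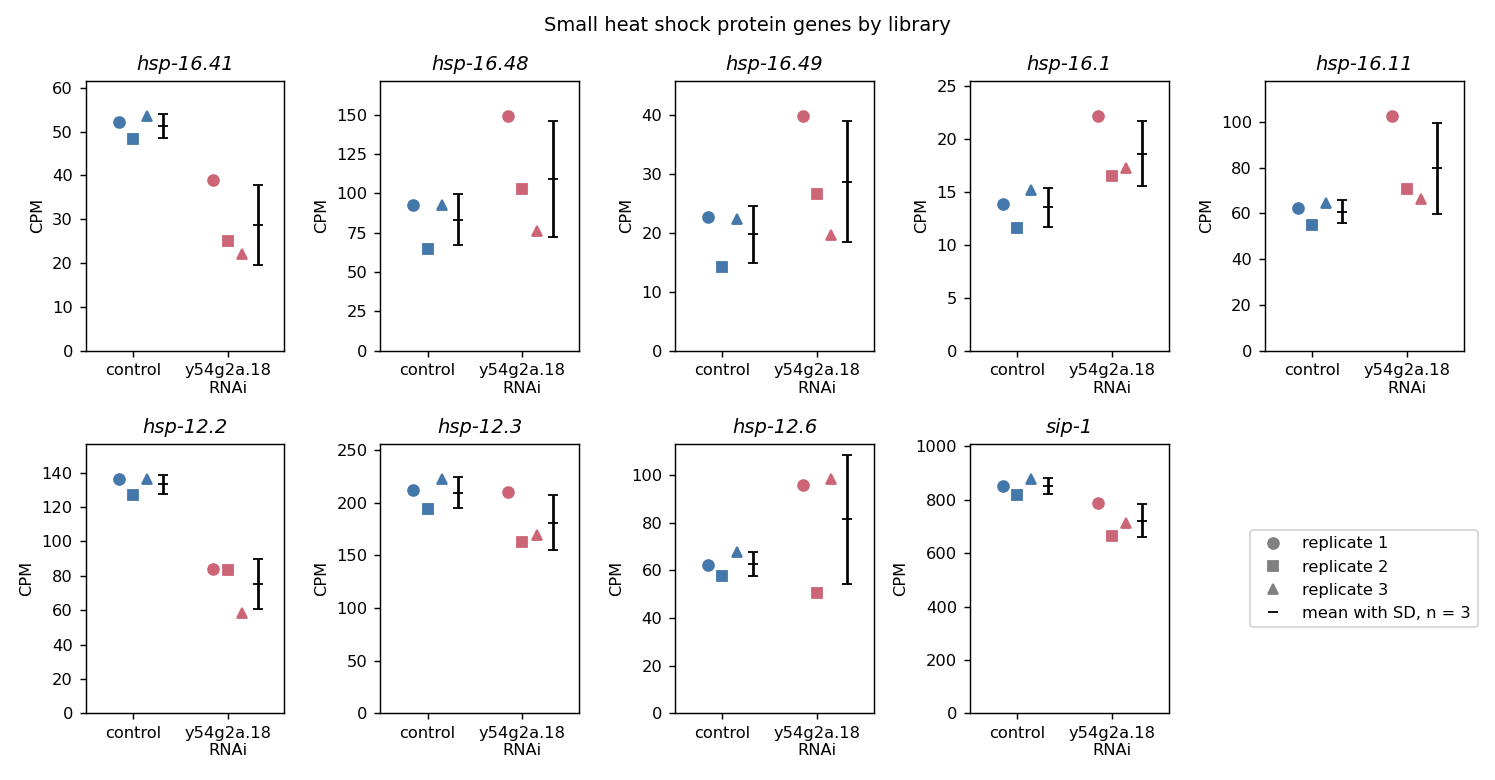
CPM by library (vertical axes, each starting at 0) of the 5 tested HSP-16 genes, the 3 tested HSP-12 genes and sip-1; symbols mark replicates 1 to 3, and bars are the mean with SD of 3 libraries. hsp-16.41 and hsp-12.2 lie lower in all 3 knockdown libraries, while the 4 genes of the hsp-16 cluster are highest in knockdown replicate 1.

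The HSP-12 proteins are short relatives of the HSP-16 family that showed little or no chaperone activity in the test tube. hsp-12.2 was the one member that passed the test. In RefSeq 10 of the 38 tested members overlap another gene, hsp-12.2 (phka-1) and sip-1 (F43D9.8) among them. No source used here states how reads in such overlaps were counted. hsp-12.2 was at 136, 127 and 136 CPM under control RNAi and at 84.1, 83.7 and 58.6 CPM under y54g2a.18 RNAi. All knockdown libraries lay well below the controls, whose own values were close to each other. It fell by 0.82 on the log2 scale (standard error 0.16; interval -1.20 to -0.44), which is 1.76-fold lower, with an adjusted p of 0.017 in edgeR. DESeq2 gave an adjusted p of 0.0013 and limma-voom 0.018, and leaving out a control library ended the call each time (adjusted p = 0.092, 0.062 and 0.081 in edgeR without replicates 1, 2 and 3). Over its 16 alternatives the log2 fold change stayed between -0.90 and -0.67.

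The other HSP-12 genes, hsp-12.3 and hsp-12.6, are neighbours. hsp-12.3 was at 212, 194 and 223 CPM under control RNAi and 211, 163 and 170 CPM under y54g2a.18 RNAi, with overlapping groups (log2 fold change -0.21, interval -0.54 to 0.12). hsp-12.6, a gene that the insulin-regulated factor DAF-16 switches on, was at 62.4, 57.8 and 67.9 CPM under control RNAi and 95.7, 50.3 and 98.4 CPM under y54g2a.18 RNAi. Knockdown replicates 1 and 3 were above all controls and replicate 2 was below them. The log2 fold change of 0.38 (interval -0.18 to 0.94, adjusted p = 0.41 in edgeR) became 0.63 without knockdown replicate 2, and the gene was then called higher (adjusted p = 0.022). The ratio of hsp-12.2 to hsp-12.3 was 0.642, 0.654 and 0.612 in the controls and 0.399, 0.513 and 0.345 in the knockdown, again without overlap and without a test.

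**Figure D4:**
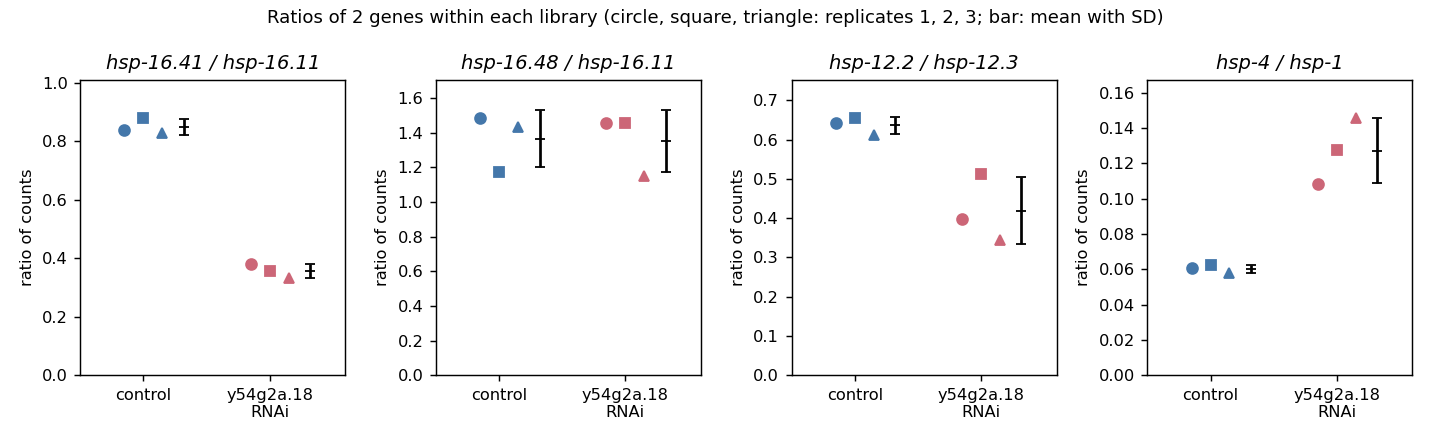
Ratios of the counts of 2 genes within each library (vertical axes, each starting at 0) for hsp-16.41 over hsp-16.11, hsp-16.48 over hsp-16.11, hsp-12.2 over hsp-12.3 and hsp-4 over hsp-1; symbols mark replicates 1 to 3, and bars are the mean with SD of 3 libraries. The groups are apart in all panels but that of hsp-16.48 over hsp-16.11, where they overlap.

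sip-1 encodes a small heat shock protein of oocytes and embryos. It was at 852, 818 and 878 CPM under control RNAi and 786, 662 and 714 CPM under y54g2a.18 RNAi. The knockdown libraries were all below the controls, but by little. The log2 fold change was -0.24, with an interval of -0.54 to 0.07 and an adjusted p of 0.33 in edgeR.

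The summed levels of 4 of 7 lists of tissue markers did not overlap between the groups, and those of intestine, neurons and early embryo did. Of all tested genes, each taken singly, 30.4% did not overlap. In edgeR 3.97% of all tested genes were called higher and 5.01% lower, and 23.3% had an unadjusted p under 0.05. In RNA from whole worms fewer cells of a type and less RNA per cell cannot be told apart. Oocyte and germline markers had 0 of 18 tested called in edgeR, DESeq2 or limma-voom (4 with an unadjusted p under 0.05 in each). They summed to 3974 to 4239 CPM under control RNAi and 3318 to 3516 CPM under y54g2a.18 RNAi. Epidermal markers had 4 of 5 tested called lower and summed to 1567 to 1878 CPM under control RNAi and 394 to 804 CPM under y54g2a.18 RNAi. Body wall muscle markers had 1 of 9 called higher and summed to 5286 to 5641 and 6396 to 7636 CPM, and sperm markers had 0 of 29 called in edgeR (13 with an unadjusted p under 0.05; 5 higher in DESeq2, 0 in limma-voom) and summed to 971 to 1105 and 1138 to 2030 CPM. The lists that overlapped had 0 genes called in edgeR, and their sums under control and y54g2a.18 RNAi were 4931 to 5307 and 4804 to 6731 CPM for intestine, 834 to 853 and 852 to 1385 CPM for neurons and 9.36 to 12.01 and 7.88 to 14.9 CPM for early embryo. At 0 in every library were pgl-3, mex-1 and nos-2 of the oocyte list, bli-1 and col-19 of the epidermal list, lev-11 of the muscle list, msp-31, msp-33 and msp-45 of the sperm list, ifb-2 of the intestinal list, rgef-1, unc-104, unc-18 and unc-10 of the neuronal list and pal-1 and elt-1 of the embryonic list. Their part in the values of hsp-12.2, hsp-16.41 and sip-1 was not tested.

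J-domain proteins are the largest group of members, with 22 genes, all of them tested. In edgeR, limma-voom and DESeq2 0 of the 22 were called, and 0 had an unadjusted p under 0.05 in any of these tests, beside 8.98% called and 23.3% with such a p among all tested genes in edgeR. The log2 fold changes ran from -0.27 to 0.18 with a median of -0.09, and 16 of the 22 were below 0. Over all 14290 tested genes the median was 0.02, and 6870 were below 0. The 22 genes share the same 6 libraries, so their signs are not independent. The 95% interval left out a 2-fold change in either direction for all 22, beside 57.2% of all tested genes. Here too precision differs, with standard errors of at most 0.28 for the 22 and 1.77 over all tested genes.

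The main cytosolic partners of HSP70 differed little between the groups. dnj-12, a class A J-domain protein gene, was at 311, 291 and 307 CPM under control RNAi and 283, 371 and 264 CPM under y54g2a.18 RNAi (log2 fold change 0.01, interval -0.34 to 0.37). dnj-19, the other class A gene of this kind, was at 358, 346 and 355 CPM under control RNAi and 346, 393 and 325 CPM under y54g2a.18 RNAi (0.01, interval -0.29 to 0.30). In both, knockdown replicate 2 was the highest library, as for hsp-1 and hsp-90. The signs of both turned with single libraries and that of dnj-12 also with limma-voom.

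dnj-13, the class B gene whose protein works with HSP-1 and HSP-110 to dissolve protein aggregates, was the steadiest of these genes. It was at 200.2, 199 and 196 CPM under control RNAi and 186, 185 and 187 CPM under y54g2a.18 RNAi. The groups did not overlap, but the difference was small, with a log2 fold change of -0.09 (interval -0.35 to 0.16, adjusted p = 0.68 in edgeR).

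The J-domain genes with the lowest fold changes were dnj-21, the homologue of the mitochondrial import motor subunit DNAJC19, dnj-4 and dnj-26. dnj-21 was at 79, 71.9 and 91.2 CPM under control RNAi and 84.9, 57.2 and 58.7 CPM under y54g2a.18 RNAi, dnj-4 at 36.6 ± 2.07 and 30.4 ± 7.58 CPM and dnj-26 at 26.5 ± 3.04 and 22.3 ± 5.57 CPM (SD, n = 3). In dnj-21 knockdown replicate 1 was among the controls and in dnj-4 it was above them, while replicates 2 and 3 were below the controls in both genes. Their adjusted p values in edgeR were 0.44, 0.47 and 0.55. At the other end, dnj-28 was at 24.4, 24.7 and 22.7 CPM under control RNAi and 28.1, 25 and 28.1 CPM under y54g2a.18 RNAi, each above each control (log2 fold change 0.18, adjusted p = 0.53 in edgeR). dnj-29, the SEC63 homologue, was at 28.6 ± 4.43 CPM under control RNAi and 27.1 ± 6.0 CPM under y54g2a.18 RNAi (log2 fold change -0.08, interval -0.56 to 0.40).

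**Figure D5:**
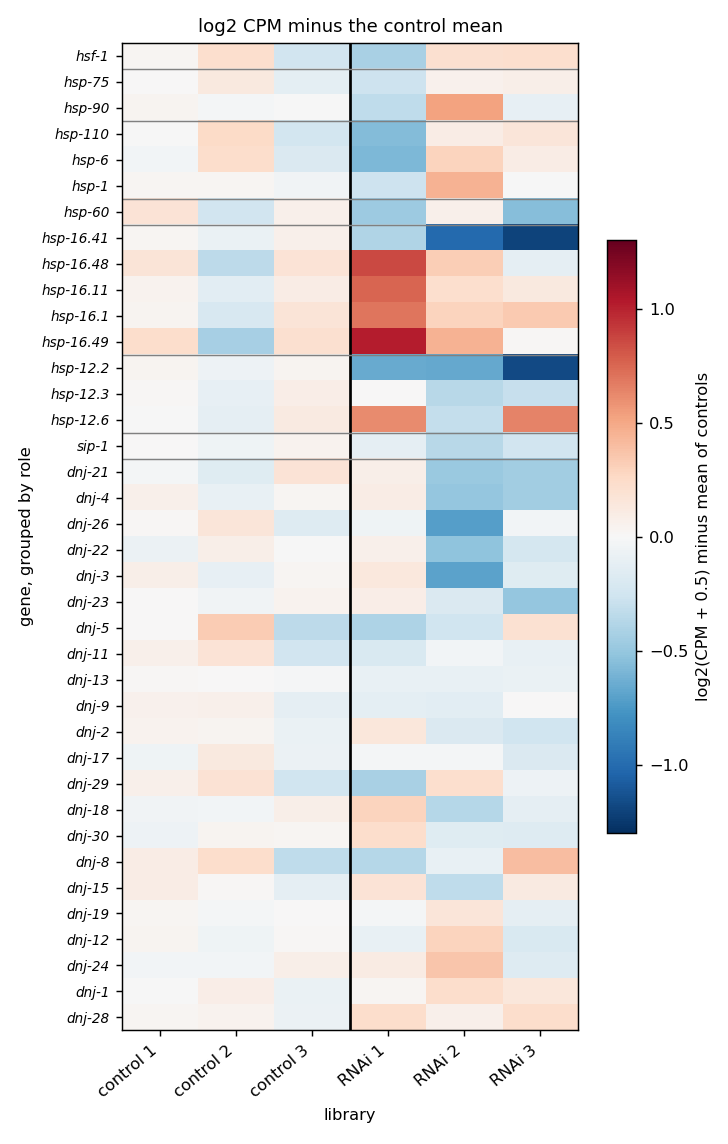
Log2(CPM + 0.5) minus the mean of the 3 control libraries for the 38 tested members (rows, grouped by role) in the 6 libraries (columns); red is above and blue below the control mean, on one colour scale. The deepest blue cells are hsp-16.41 in knockdown replicates 2 and 3 and hsp-12.2 in replicate 3, the deepest red is hsp-16.49 in replicate 1, and most J-domain rows are pale.

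The libraries of the 2 groups did not overlap for 7 of the 38 members, or 18.4%, beside 30.4% of the whole table. Higher in every knockdown library were 3 members, hsp-16.1, hsp-16.11 and dnj-28 (15.8% of all tested genes), and lower in every one were 4, hsp-12.2, hsp-16.41, sip-1 and dnj-13 (14.6% of all tested genes). The spread was wider in the knockdown: the SD of CPM was larger there than in the controls for 33 of 38 members (86.8%), as for 78.7% of all tested genes. The 38 members together came to 7428 ± 93.3 CPM under control RNAi and 7406 ± 1171 CPM under y54g2a.18 RNAi (SD, n = 3), with knockdown libraries at 6600.5, 8749 and 6869 CPM. Much of this sum was hsp-90 and hsp-1, with control means of 2299 and 1500 CPM. Both were highest in knockdown replicate 2, at 3303 and 2053 CPM, so the sum says little of the other members.

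Genes that work with these chaperones gave a like picture. A list of partners held cochaperones of HSP90 and HSP70, heat-inducible genes known by sequence name, regulators of HSF-1, the chaperonin CCT, prefoldin and genes of the mitochondrial stress response. Of its 41 tested genes 0 were called in edgeR, limma-voom or DESeq2, and 1 had an unadjusted p under 0.05 in each of them, against 8.98% of all tested genes called in edgeR. The median log2 fold change was 0.06. In edgeR the gene with that p was tomm-20, a receptor of the mitochondrial outer membrane for imported proteins, at 246, 224 and 268 CPM under control RNAi and 204, 167 and 188 CPM under y54g2a.18 RNAi (adjusted p = 0.12). hsb-1, whose protein binds and holds back HSF-1, had a log2 fold change of 0.17, and F44E5.4 and F44E5.5, which encode heat-inducible HSP70 proteins, had values of 0.16 and 0.18 (adjusted p = 0.51, 0.75 and 0.72 in edgeR). The 8 CCT subunits ran from -0.35 to 0.28 with 7 above 0 and 0 called. The partners atfs-1, clpp-1, dve-1 and F08H9.4 were listed at 0 in every library, and daf-21 is the older name of the member hsp-90.

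Low values in this table cannot be read as low expression without the annotation. Among protein-coding genes that matched RefSeq by symbol, 6.91% of those with 1 RefSeq transcript were at 0 in all 6 libraries, against 39.1% with 2 transcripts and 61.4% with 3 or more. The median total was 1136, 9 and 0 counts in these classes. Of the 9 names under the rule with fewer than 10 counts, 8 had 2 or more transcripts, among them dnj-14, the neuronal cysteine string protein gene, dnj-25, the auxilin gene, dnj-10, hsp-12.1, hsp-43, hsp-25, dnj-16 and hsp-17. The cause was not tested. The ninth, hsp-70, which encodes the strongly heat-inducible HSP70, has 1 transcript and 0 counts in every library, which allows up to 0.0266 CPM under control RNAi and 0.0284 CPM under y54g2a.18 RNAi (3 counts over a group, counting error only; 71.5% of the values from 1 to 20 were even, as when both mates of a pair are counted, so this limit is too low). Its gene overlaps uggt-2, and no source used here states how reads in the overlap were counted. Just above the limit of 10 counts stood hsp-16.2 with 25 and hsp-2 with 27, and just below it hsp-25 with 6 and dnj-16 with 5. Of the 38 tested members 31 had 1 transcript, hsp-12.2 and hsp-16.41 among them, and with only such genes kept in the fit hsp-16.41 was also called lower (adjusted p = 0.045 in edgeR).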

How the data were processed

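The authors deposited raw counts per gene, with no normalization, for one column per library; the tools listed, per the submitters' processing notes and with no stated role, are HISAT2 2.2.1, FastQC 0.11.9, DESeq2 1.16.1 and featureCounts 1.28.1. No source used here gives the build, annotation or strand setting, so no coordinates and no sequences are printed. Groups and replicate numbers came from the titles, and columns were matched by library name. Of 46903 entries 12 carried dates in place of names (at most 0.0247% of a library's counts) and were left out.

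The 6 libraries of the y54g2a.18 experiment were fitted in R 4.3.3 with edgeR 4.0.16: filterByExpr (minimum count 10, minimum total 15), trimmed-mean scaling, the quasi-likelihood test with the group as its only term, and Benjamini-Hochberg adjustment over all 14290 tested genes, with calls at 0.05. Standard errors are the absolute log2 fold change over the square root of F, and 95% intervals use the degrees of freedom of the fit; both are approximate. The steps were run on simulated data as a check of the code. The simulation gave both groups the same spread, whereas most genes here spread more in the knockdown. It therefore does not tell how often small changes are missed in these libraries. Libraries of a group differed by more than sampling noise (chi-square per degree of freedom at least 24.1). Symbols were matched to RefSeq (WBcel235) for names, neighbours and transcript numbers, 48 of 49 names under the rule matching.

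Members, lists and tests were chosen with earlier results of these data known. The genes to name were the called members, the 6 highest and 6 lowest fold changes, a fixed set of regulators, reporters and main chaperones, and members whose call an alternative changed; others are examples chosen after their values were seen. Alternatives were limma-voom (limma 3.58.1), the DESeq2 1.42.0 Wald test, scaling by DESeq2 size factors, upper quartiles or total counts, a filter of 1 CPM in 3 libraries or none, the replicate number as a block and the omission of each library; keeping genes with 1 RefSeq transcript and summing near-identical copies were added after the data were seen.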

Additional observations from a re-analysis of the deposited data

How the results depend on the processing

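Calls among the members hung on 3 genes. The number called lower, 1 in the main analysis (hsp-12.2), was 2 with total counts, no filter, DESeq2, limma-voom or genes with 1 RefSeq transcript only, hsp-16.41 being the second, and 0 to 2 when single libraries were left out. The number called higher, 0, was 0 to 1 when single libraries were left out (hsp-12.6 without knockdown replicate 2). For the members' median log2 fold change, -0.06, the values ran from -0.12 to -0.0055 when single libraries were left out and stayed within the spread between libraries otherwise. Y54G2A.18 kept its call in all 16 alternatives (-1.83 to -1.28). Uncalled genes near 0 changed sign: hsp-6 with upper-quartile factors (0.0068), dnj-12 and hsf-1 with limma-voom (-0.00094 and -0.0044) and dnj-12 with the replicate block (-0.0011). Without single libraries the ranges were -0.15 to 0.11 for dnj-12, -0.072 to 0.067 for dnj-19, -0.098 to 0.20 for hsf-1, -0.13 to 0.24 for hsp-1, -0.21 to 0.11 for hsp-110, -0.22 to 0.19 for hsp-6 and -0.21 to 0.24 for hsp-90. These causes were not tested. Calls over all genes fell to 646, 664 and 667 of all tested without control replicate 1, 2 or 3, from 1283, and rose to 2097 without knockdown replicate 1. The replicate numbers did not pair the libraries: same-numbered libraries deviated from their group means with correlations of 0.0074, 0.045 and -0.37, and not every library correlated best with its own number. The replicate block left 1 member called lower (hsp-12.2, adjusted p = 0.035 in edgeR) and 955 calls over all genes. With 3 libraries a group, changes well under 2-fold in genes of this spread may go uncalled.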
